A study of Mus musculus with 9 samples.

Results

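The IL-6 family of cytokines signals through receptor pairs on the cell surface, JAK kinases bound to these receptors, and the transcription factor STAT3. The genes of this route described here are 10 of the 22322 genes in the expression table: the receptor subunits Osmr, Lifr, Il6st and Il6ra, the ligands Il6 and Lif, the kinases Jak1 and Jak2, Stat3, and the feedback gene Socs3. Each symbol matched a single row. The members were chosen by their place in the pathway, and the pathway was selected on the measured levels of Osmr and Socs3, known to be higher in aging RGCs + USCs medium than in aging RGCs, so the members' values in the medium are given as a description, without p-values.

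RNA of mouse retinal ganglion cells (RGCs), wild type by their labels, was sequenced in 3 groups of 3 libraries. Normal RGCs received neither treatment, aging RGCs were exposed to D-galactose, a sugar used to bring on a senescence-like state, and aging RGCs + USCs medium were given D-galactose as well as medium in which urine-derived stem cells (USCs) had grown, after removal of those cells. USCs came from human donors, the RGCs were a purchased culture grown in high glucose medium with serum, and the replicates were wells, so p-values measure the spread between wells. No group was kept in USCs medium without conditioning, so secreted factors and the base medium cannot be told apart. Library totals were 18189616 to 22342288 expected counts, which are estimated read numbers.

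Defining RGC markers were in part absent from these cultures. Of 12 RGC markers, 5 averaged at least 1 CPM in some group. All 12 summed to 193 to 207 CPM in normal libraries, 150 to 155 CPM in aging libraries and 149 to 165 CPM in the medium. Tubb3, among these 12, averaged 4.46 CPM in normal RGCs, 2.59 in aging RGCs and 21.2 in the medium. The sum does not show that rise. Pou4f2 and Pou4f3 had 0 counts in all 9 libraries, and Thy1 and Slc17a6 averaged at most 0.0326 and 0.157 CPM (counts scaled to a common library size) in any group, whereas Rbpms averaged 48.0 to 61.2 CPM and Isl1 12.0 to 18.9 CPM. Photoreceptor markers summed to at most 3.08 CPM in any library, while 8 mesenchymal markers, mainly Vim and Fn1, summed to 2618 to 3230 CPM and 8 epithelial markers to 1047 to 1285 CPM. Markers of glia, mainly Glul, summed to 118 to 146 CPM. The 13 macrophage markers had summed levels of 71.5 to 83.6 CPM in the normal group, between 58.0 and 64.0 CPM with D-galactose alone, and 45.4 to 71.9 CPM with the medium, led by Cd68. Their part in the results below was not tested. In such bulk libraries fewer cells of a type and less RNA per cell cannot be told apart.

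Gp130, the product of Il6st, is the shared signal-transducing subunit of the family. It pairs with OSMR to receive oncostatin M, with LIFR to receive leukemia inhibitory factor, and acts as a pair of gp130 chains when IL-6 is held by IL-6R, the product of Il6ra. JAK1 and JAK2 phosphorylate the receptor tails and STAT3, and STAT3 then switches on genes that include Socs3, whose product blocks the receptor complex. In the retina this route is known for the response of glia and ganglion cells to injury, and LIF and related cytokines are known as survival factors.

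Socs3 is the member with a STAT-like sequence just before its RefSeq start, so that sequence is shown. The motif searched was TTCNNNGAA, which reads the same on both strands and was looked for in the 250 bases before each RefSeq start (GRCm38.p6). All 10 members had a window, Lifr with a pair of them. Only Socs3 held the motif, against 7.02% of all 32851 windows. A match is a description of letters and not a bound site, and no match in Osmr or the others says only that these letters were not in their windows. The Osmr window lies within the first exon of the GENCODE transcript, which starts upstream of the RefSeq one, so sequence before the GENCODE start of Osmr was not searched. Sequence before the GENCODE start of Lifr, at 7090614, was not searched either, since its pair of windows lies inside the gene. The windows of Jak1 and Lif run in part into their genes. The stretch below lies at chr11:117969452-117969616 on the minus strand, 165 bases that hold no annotated exon. It lies before the start of the protein-coding GENCODE transcript but inside the gene as GENCODE draws it, in an intron of a non-coding transcript that starts farther upstream. The capitals mark the motif, at chr11:117969512-117969520, whose first base lies 154 bases before the RefSeq start.
Socs3: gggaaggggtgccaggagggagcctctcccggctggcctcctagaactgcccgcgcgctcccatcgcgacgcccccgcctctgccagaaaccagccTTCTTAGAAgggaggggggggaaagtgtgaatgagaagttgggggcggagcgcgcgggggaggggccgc

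Transcripts of the receptor subunits moved in opposite directions in the medium. Osmr, whose product pairs with gp130 to receive oncostatin M, lies on chromosome 15 from 6813577 to 6874969 (GRCm38, minus strand). Its level per transcript length was 4.96, 5.74 and 4.89 FPKM (fragments per kilobase of transcript, scaled by library size) in the normal libraries, 2.21, 2.05 and 2.33 in the aging libraries and 14.1, 13.7 and 14.2 in the medium. The groups did not overlap, with aging lowest and the medium highest. The mean was 5.20 ± 0.472 FPKM (SD, n = 3) in normal RGCs, 2.20 ± 0.140 in aging RGCs and 14.0 ± 0.261 in the medium. Between aging and normal RGCs, Osmr fell by 1.21 on the log2 scale (standard error, SE, 0.0813, edgeR adjusted p = 1.07e-12, from its quasi-likelihood test with Benjamini-Hochberg correction over 12145 genes). This was the 127th lowest fold change of the genes tested, though the same aging libraries had singled Osmr out against the medium. Its log2 fold change in the medium was 2.77 (SE 0.0736) against aging RGCs, the 21st highest, and 1.56 (SE 0.0641) against normal RGCs, so its level lay above that of untreated cells as well.

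Lifr, the subunit for leukemia inhibitory factor, also lies on chromosome 15, from 7090614 to 7197489 on the plus strand. The gap between Osmr and Lifr is 215644 bases and holds 3 RefSeq genes, with 0 protein-coding genes among them. Lifr stood at 6.23, 5.57 and 6.0 FPKM in normal RGCs, at 4.27, 4.13 and 3.96 in aging RGCs and at 1.87, 1.42 and 1.96 in the medium. Its levels went down step by step over the groups, with no overlap. Between normal and aging RGCs Lifr fell by 0.40 on the log2 scale (SE 0.0727, edgeR adjusted p = 5.06e-05). Lifr had a log2 fold change in the medium of -1.24 (SE 0.0846) against aging and -1.64 (SE 0.0815) against normal RGCs.

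Set against each other within a library, the transcripts of these receptors changed places. The ratio of Osmr to Lifr in FPKM was 0.796, 1.03 and 0.815 in the normal libraries, 0.518, 0.496 and 0.588 in the aging libraries and 7.51, 9.65 and 7.25 in the medium. Lifr was thus the more abundant transcript in every aging library and Osmr in every medium library, while in normal RGCs they were close. The sum of both was 11.1 ± 0.216 FPKM (SD, n = 3) in normal RGCs, 6.32 ± 0.152 in aging RGCs and 15.7 ± 0.548 in the medium. The ratio was formed after the values were seen and was not tested.

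**Figure D1:**
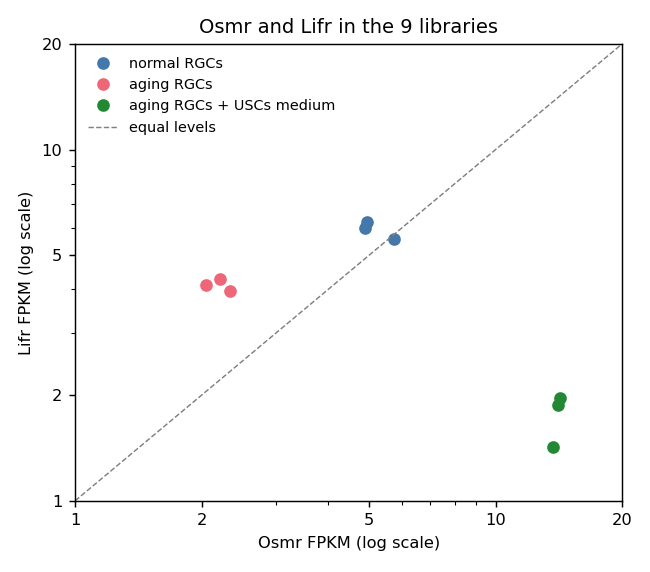
Osmr level (horizontal axis, FPKM on a log scale) against Lifr level (vertical axis, FPKM on a log scale), with 1 point per library coloured by group and a dashed line where both are equal. The medium libraries lie far to the right of the line at an Osmr to Lifr ratio of 7.25 to 9.65, and the aging libraries to its left at 0.496 to 0.588.

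Transcripts of the shared subunit moved less than those of Osmr and Lifr. Il6st (gp130) was at 24.2, 23.9 and 23.8 FPKM in normal RGCs, 21.9, 22.01 and 20.9 in aging RGCs and 26.8, 25.9 and 26.4 in the medium. These narrow groups did not overlap. Between aging and normal RGCs the log2 fold change of Il6st was -0.13 (SE 0.0353, edgeR adjusted p = 0.003), and in the medium it was 0.34 (SE 0.0352) against aging RGCs. Gp130 transcripts exceeded those of Osmr by 4.16 to 4.88 times in normal, 8.98 to 10.7 times in aging and 1.86 to 1.91 times in medium libraries, per transcript length.

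Il6ra, which encodes the IL-6 binding subunit and is known from macrophages and hepatocytes, was at 7.74, 8.05 and 7.94 FPKM in normal RGCs, 8.96, 8.96 and 8.53 in aging RGCs and 9.51, 10.2 and 8.89 in the medium. The aging and medium libraries overlapped on this scale but not in CPM. Il6ra was higher in aging than in normal RGCs by a log2 fold change of 0.17 (SE 0.0549, edgeR adjusted p = 0.0145), but this call was lost in 3 alternatives, with an edgeR adjusted p of 0.0723 without normal replicate 3 and limma adjusted p of 0.0995 and 0.0948 on log2(FPKM + 1) and log2(FPKM + 0.1). Its log2 fold change in the medium was 0.18 (SE 0.054) against aging RGCs, and 0.10 without TMM factors and 0.10 and 0.11 by limma. An antisense gene overlaps exons of Il6ra, and the sources used here do not say whether counting used strand.

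The ligands differed from each other in level and in response. Lif, which encodes leukemia inhibitory factor and lies on chromosome 11 from 4257557 to 4272514, stood at 5.35, 7.55 and 5.40 FPKM in normal RGCs, at 8.23, 8.77 and 8.76 in aging RGCs and at 3.72, 3.99 and 3.36 in the medium. Normal replicate 2 was higher than the other normal libraries, and the groups still did not overlap. Lif rose in aging RGCs by a log2 fold change of 0.52 (SE 0.0923, edgeR adjusted p = 3.48e-05), from 23.7 to 33.9 CPM. Lif had a log2 fold change in the medium of -1.14 (SE 0.0985) against aging RGCs and -0.62 (SE 0.101) against normal RGCs. Transcripts of this ligand and of its receptor Lifr were both lowest in the medium.

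Il6 itself was barely detected. Its counts were 14, 10 and 13 in normal RGCs, 11, 10 and 12 in aging RGCs and 12, 7 and 12 in the medium, which overlapped throughout. The log2 fold change of aging against normal RGCs was -0.01 with a 95% interval of -0.89 to 0.86 (edgeR adjusted p = 0.984), so changes smaller than about that size were not detectable at this depth. In the medium it was -0.12 (SE 0.441) against aging RGCs.

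The kinases changed little. Jak1 was at 63.1, 62.3 and 59.0 FPKM in normal RGCs, 60.6, 58.9 and 60.8 in aging RGCs and 51.3, 52.3 and 50.5 in the medium. Normal and aging libraries overlapped and the medium libraries were lower. The log2 fold change of Jak1 between aging and normal RGCs was 0.00 with a 95% interval of -0.07 to 0.07 (edgeR adjusted p = 0.997), and it was -0.15 (SE 0.0331) in the medium against aging RGCs. Jak2 was at 23.1, 23.5 and 23.5 FPKM in normal RGCs, 23.1, 23.9 and 22.5 in aging RGCs and 26.2, 24.3 and 26.6 in the medium. It went the other way from Jak1 in the medium, with a log2 fold change of 0.23 (SE 0.04) against aging RGCs. Between aging and normal RGCs the log2 fold change of Jak2 was 0.01 with a 95% interval of -0.07 to 0.09 (edgeR adjusted p = 0.829). The exons of Jak1 overlap those of Raver2 on the other strand.

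Stat3 was among the most abundant members. It stood at 62.3, 57.1 and 57.1 FPKM in normal RGCs, at 44.1, 46.3 and 45.4 in aging RGCs and at 58.9, 59.2 and 62.3 in the medium. The aging libraries were the lowest, and the medium libraries overlapped the normal ones. Stat3 fell by 0.34 on the log2 scale between normal and aging RGCs (SE 0.0376, edgeR adjusted p = 2.23e-08). Stat3 had a log2 fold change in the medium of 0.47 (SE 0.0376) against aging RGCs and 0.13 (SE 0.0369) against normal RGCs. The difference from normal RGCs shrank to 0.03 without TMM factors, a scaling that moved the median gene by -0.10 in that comparison. Stat3 shares exonic bases with Stat5a on the other strand.

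Socs3, the feedback inhibitor with the motif shown above, lies on chromosome 11 from 117966079 to 117970047. Its level was 15.1, 13.5 and 14.8 FPKM in normal RGCs, 9.84, 10.8 and 10.7 in aging RGCs and 35.9, 35.9 and 36.1 in the medium. The groups were well apart, and the medium libraries were almost level with each other. Between aging and normal RGCs Socs3 fell by 0.44 on the log2 scale (SE 0.0606, edgeR adjusted p = 7.74e-07), with the same aging libraries that had singled it out against the medium. Its log2 fold change in the medium was 1.86 (SE 0.0559) against aging RGCs, the 41st highest of the genes tested, and 1.41 (SE 0.053) against normal RGCs. Relative to Stat3, Socs3 stood at 0.246 ± 0.0123 (SD, n = 3) in normal RGCs, 0.231 ± 0.00693 in aging RGCs and 0.598 ± 0.0167 in the medium, as a ratio of FPKM values.

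**Figure D2:**
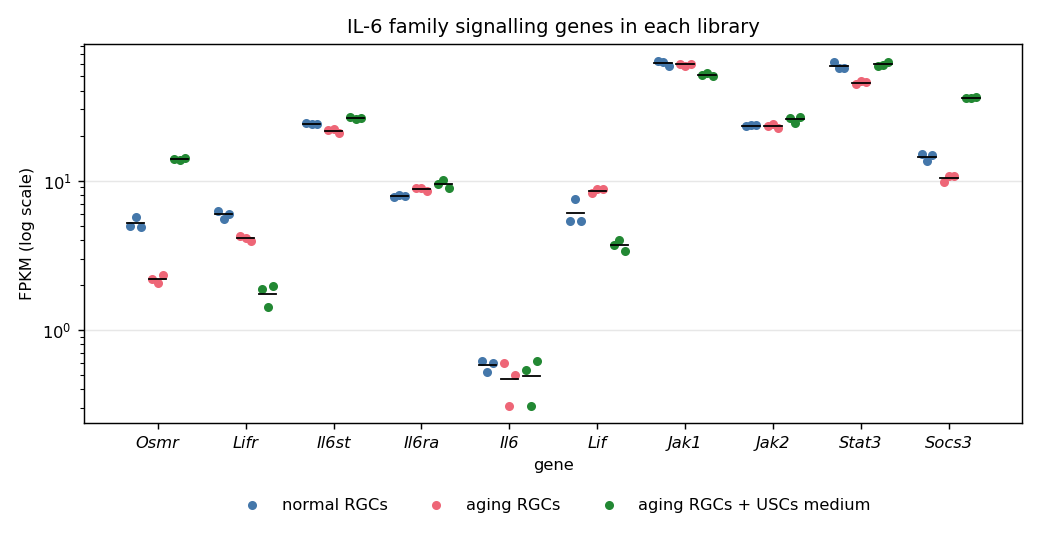
Levels of the 10 genes (horizontal axis) in each library, as FPKM on a log scale (vertical axis), with points coloured by group and a black line at the group mean of 3 libraries. Osmr and Socs3 are highest in the medium, at 13.7 to 14.2 and 35.9 to 36.1 FPKM, Lifr and Lif are lowest there, and Il6 stays under 0.7 FPKM in every library.

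The order of the levels per transcript length shifted accordingly. In normal RGCs it was Jak1 (61.4 FPKM), Stat3 (58.8), Il6st (23.9), Jak2 (23.3), Socs3 (14.4), Il6ra (7.91), Lif (6.10), Lifr (5.93), Osmr (5.20) and Il6 (0.58). The libraries of Jak1 and Stat3 overlapped, as did those of Lif and Lifr and of Lifr and Osmr. In aging RGCs the order of the 5 lowest was Il6ra (8.82 FPKM), Lif (8.59), Lifr (4.12), Osmr (2.20) and Il6 (0.47), and Il6ra and Lif overlapped. In the medium the order was Stat3 (60.1 FPKM), Jak1 (51.4), Socs3 (36.0), Il6st (26.3), Jak2 (25.7), Osmr (14.0), Il6ra (9.52), Lif (3.69), Lifr (1.75) and Il6 (0.49), and only Il6st and Jak2 overlapped among neighbours. Osmr thus moved from below Lifr to above Il6ra, and Socs3 from below Jak2 to above Il6st.

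All 10 members passed the low-count filter. In aging against normal RGCs 7 passed an adjusted p under 0.05 by edgeR, Il6ra and Lif upward and Osmr, Lifr, Il6st, Stat3 and Socs3 downward, in a comparison where 46.5% of all genes tested passed, 23.6% upward and 23.0% downward. The same 7 had CPM values that did not overlap between these groups, beside 53.0% of all genes. A differentially expressed gene (DEG) had, beyond that, to change by at least 1 on the log2 scale. Of the members 1, Osmr, was a DEG and lower in aging RGCs, against 2.65% of all genes, 1.09% higher and 1.56% lower. The median log2 fold change of the members was -0.07, beside 0.00 over all genes tested. Between the medium and aging RGCs 4 members were DEGs, Osmr and Socs3 upregulated and Lifr and Lif downregulated, beside 5.44% of all genes, 1.24% up and 4.21% down. Past the adjusted p alone were 6 members upward and 3 downward, beside 53.1% of all genes, 27.1% up and 26.0% down, and 9 did not overlap in CPM, beside 59.8%. Between the medium and normal RGCs 3 were DEGs, Osmr and Socs3 upward and Lifr downward, beside 6.72% of all genes, 1.47% up and 5.24% down. The adjusted p alone was passed by 6 upward and 3 downward, beside 60.5% of all genes, 30.6% up and 29.9% down, and 9 did not overlap in CPM, beside 63.8%. Since the members were chosen with the medium in view, nothing is read from the counts that involve it. The aging libraries entered that choice as the lower group, so nothing is read from the counts against normal RGCs either. Comparisons that share libraries are not independent of each other.

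**Figure D3:**
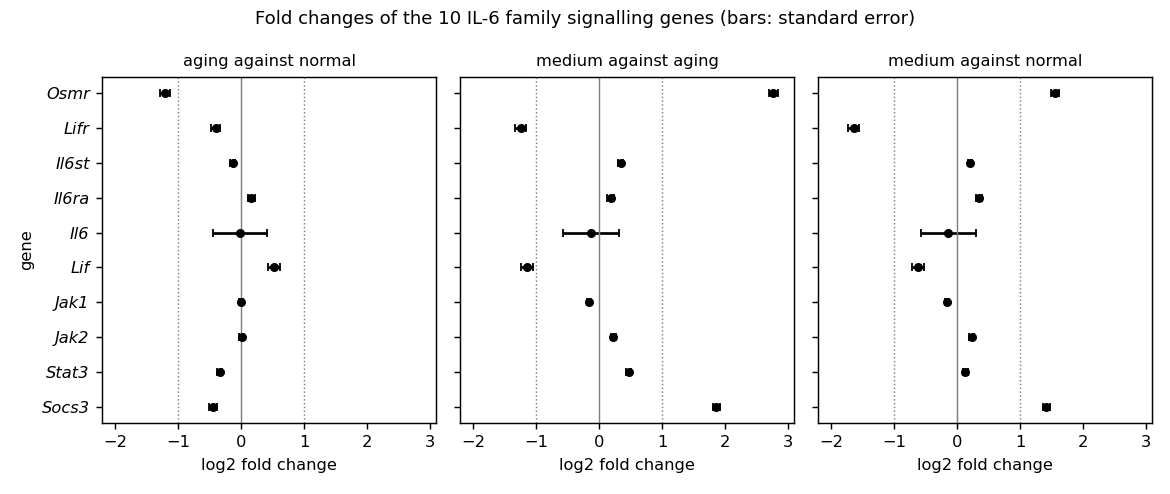
Log2 fold changes (horizontal axis) of the 10 genes (vertical axis) in the 3 comparisons, with bars of 1 standard error from the edgeR fit and dotted lines at -1 and 1. Osmr is at -1.21 in aging against normal RGCs and at 2.77 in the medium against aging RGCs, Lifr is below 0 in all 3 panels, and the widest bars belong to Il6.

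Other genes of the pathway were taken from lists by role, of which 55 of 82 genes were tested. In aging against normal RGCs 9 were higher and 24 lower at an adjusted p under 0.05 by edgeR (60.0%, beside 46.5% of all genes), and 1, Socs2, was a DEG (1.82%, beside 2.65%). Between the medium and aging RGCs 24 were higher and 9 lower (60.0%, beside 53.1%), and 7 were upregulated and 1 downregulated DEGs (14.5%, beside 5.44%). Nothing is read from that DEG share, since the 7 include Lcn2 and Serpina3n, listed with their rise known, and Serpina3n and Orm1 were tested only through their medium libraries. The median log2 fold change of these genes was -0.12 in the first comparison and 0.12 in the second, beside 0.00 and -0.01 over all genes tested. The lists were chosen with earlier results of these data known, so their shares and medians are a description.

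Among the other ligands, 5 of 10 were tested, and Osm, which encodes oncostatin M, was not, with 0 to 5 counts in a library and at most 0.153 CPM on average. Il11, an IL-6 family ligand that also uses gp130, was at 10.05, 9.64 and 10.2 CPM in normal RGCs, at 6.22, 6.28 and 5.27 in aging RGCs and at 2.62, 2.73 and 3.64 in the medium. It went down over the groups without overlap, with log2 fold changes of -0.75 in aging against normal RGCs (edgeR adjusted p = 3.95e-05) and -0.98 in the medium against aging RGCs (adjusted p = 7.27e-06). Against normal RGCs Il11 was a DEG in the medium (log2 fold change -1.73, SE 0.148, edgeR adjusted p = 5.69e-11). Clcf1, another ligand of the family, passed in neither step (log2 fold changes 0.27 and -0.11, edgeR adjusted p = 0.0654 and 0.466). Of 5 further receptor chains 2 were tested. Il11ra1, the binding subunit for interleukin-11, passed only in the medium, where it fell against aging RGCs (log2 fold change -0.43, edgeR adjusted p = 0.0103), and the cytokine receptor Il27ra passed in neither.

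The remaining kinases and STAT factors held 7 tested genes of 8 and 0 DEGs in each of the 3 comparisons by edgeR. The adjusted p alone was passed by 2, 3 and 4 of them (28.6%, 42.9% and 57.1%). Of all genes 46.5%, 53.1% and 60.5% passed, and with 7 genes nothing is read from the difference. Stat6, the factor downstream of interleukin-4, was higher in aging RGCs (log2 fold change 0.21, edgeR adjusted p = 0.000122) and lower again in the medium (-0.22, adjusted p = 6.08e-05). Stat5b was lower in aging RGCs by a log2 fold change of -0.15 (edgeR adjusted p = 0.0177) and did not pass in the medium against aging RGCs (-0.03, adjusted p = 0.688).

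All 15 inhibitors were tested. In aging against normal RGCs 3 were higher, 7 lower and 5 did not pass (66.7% passed, beside 46.5% of all genes). With the medium, 5 were higher than in aging RGCs, 2 lower and 8 did not pass (46.7% passed, beside 53.1% of all genes). Socs2, known as a feedback inhibitor of growth hormone signalling, was at 13.8, 16.2 and 14.5 CPM in normal RGCs, 7.35, 6.59 and 6.33 in aging RGCs and 14.3, 17.1 and 15.4 in the medium. The aging libraries were lower than all others, which overlapped. Socs2 fell by 1.13 on the log2 scale in aging RGCs (SE 0.109, edgeR adjusted p = 1.51e-09). It rose by 1.21 in the medium against aging RGCs (SE 0.109, adjusted p = 2.83e-10). By limma the fold change in aging RGCs was -0.81 on log2(FPKM + 1) and -0.96 on log2(FPKM + 0.1), short of the DEG threshold. So was the medium against aging RGCs on log2(FPKM + 1), at 0.87. In the medium Socs2 did not differ detectably from normal RGCs (log2 fold change 0.08, SE 0.0969, edgeR adjusted p = 0.493), where Socs3 lay well above. Socs5, by contrast, was lower in both steps (log2 fold changes -0.13 and -0.23, edgeR adjusted p = 0.005 and 1.23e-05). The phosphatase Ptpn11, which docks on gp130, passed in neither (0.06 and 0.03, adjusted p = 0.166 and 0.478).

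Genes known to be induced by STAT3, mostly transcription factors and survival genes, held 19 tested genes of 21. In aging against normal RGCs 4 were higher and 10 lower (73.7%, beside 46.5% of all genes), with a median log2 fold change of -0.51. Between the medium and aging RGCs 12 were higher and 1, Ccnd1, was lower (68.4%, beside 53.1%), with a median of 0.33. Both comparisons rest on the same aging libraries, and the list was chosen with earlier results of these data known. Nothing is therefore read from these shares or medians. Cebpd, a factor of the acute-phase response, was at 8.10, 8.14 and 6.81 CPM in normal RGCs, 10.6, 9.63 and 10.7 in aging RGCs and 25.6, 29.7 and 25.9 in the medium. It went up over the groups, with a log2 fold change of 0.42 in aging RGCs (edgeR adjusted p = 0.00179) and 1.39 in the medium (SE 0.0928, adjusted p = 5.93e-13), and it overlaps Spidr on the other strand. The immediate-early gene Fos rose in the medium from 2.32 to 4.83 CPM (log2 fold change 1.05, edgeR adjusted p = 6.56e-05), but its fold change was 0.95 without aging replicate 1, 0.91 without medium replicate 2, 0.98 without TMM factors and 0.59 and 0.91 by limma, below the DEG line. Bcl3 lay just under that line at 0.996 (12.7 to 25.2 CPM), and is named after its value was seen. Hif1a, the hypoxia factor, was lower in aging RGCs (log2 fold change -0.51, edgeR adjusted p = 3.48e-13) and higher in the medium (0.55, adjusted p = 6.32e-14). Mcl1, which protects from apoptosis, passed only in the medium (log2 fold change 0.10, edgeR adjusted p = 0.00623).

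Acute-phase and related genes were mostly silent, with 7 of 23 tested. In the medium against aging RGCs 4 were upregulated and 1 downregulated (71.4%, beside 5.44% of all genes), and the median log2 fold change was 1.07, also with Orm1 at its bound. Nothing is read from this share or median, because of how 3 of the 7 entered. Lcn2, an iron-sequestering acute-phase protein, went from 5.03, 4.33 and 3.65 CPM in aging RGCs to 74.6, 81.7 and 80.6 in the medium, and Serpina3n, a protease inhibitor, from 0.379, 0.103 and 0.253 to 15.7, 18.7 and 18.6. The rise of Lcn2 and Serpina3n was known when the lists were made, and Serpina3n and Orm1 were tested only because of their medium libraries. Orm1 was not counted at all in aging RGCs and reached 17, 11 and 14 counts in the medium, at least 12.9-fold higher against a floor of 3 counts over the group. Il4ra, the interleukin-4 receptor subunit, rose in the medium from 31.3 to 65.8 CPM (log2 fold change 1.07, SE 0.0564, edgeR adjusted p = 3.23e-15) and overlaps an antisense gene. Il4ra fell just below the DEG line in 3 of 19 alternatives, at 0.994 without TMM factors and at 0.929 and 0.998 by limma. Il1rn, the interleukin-1 receptor antagonist, was the downregulated one (log2 fold change -1.08, edgeR adjusted p = 4.97e-07). It went from 10.6, 9.73 and 9.67 CPM in aging RGCs to 4.88, 4.61 and 4.71 CPM in the medium. By limma on log2(FPKM + 1) its fold change was -0.89, short of the DEG line. Cp, the copper carrier ceruloplasmin, and Lbp, which binds bacterial lipopolysaccharide, were lower in aging RGCs (log2 fold changes -0.20 and -0.94, edgeR adjusted p = 0.00688 and 4.54e-08) and higher in the medium (0.75 and 0.49, adjusted p = 1.11e-11 and 0.000528).

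**Figure D4:**
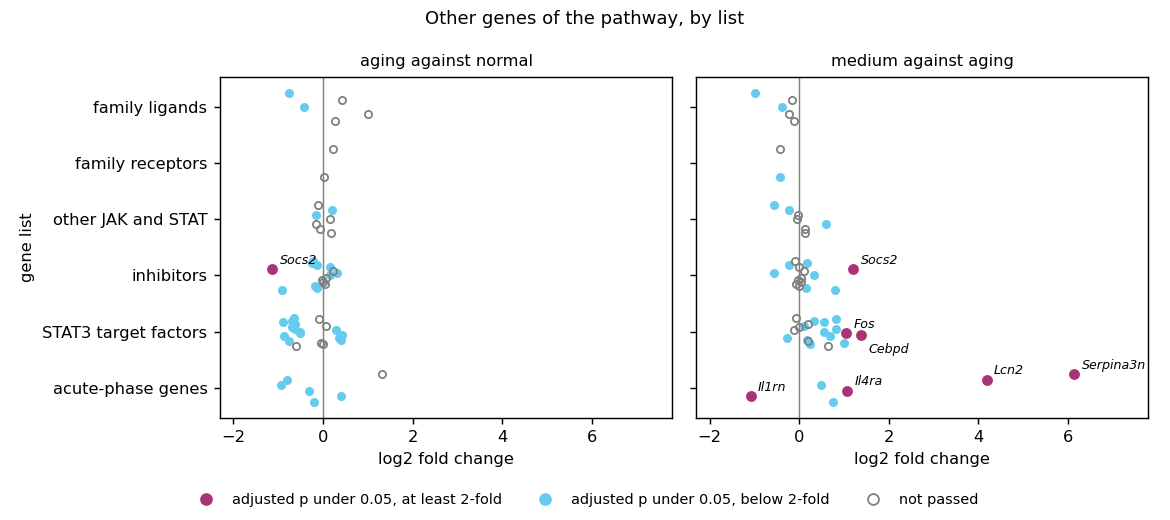
Log2 fold changes (horizontal axis) of the tested pathway genes by list (vertical axis), in aging against normal RGCs and in the medium against aging RGCs, with 1 point per gene coloured by test result. Orm1, at 0 counts in aging RGCs, is left out. Of the STAT3 target factors 10 of 19 lie below 0 and pass in the left panel, and 12 of 19 lie above 0 and pass in the right panel.

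Genes with profiles like those of Osmr and Socs3 were sought over the 9 libraries, by the root mean square difference of log2 CPM after each profile was centred on its mean. Closest to Osmr were Tubb3 (0.31 on the log2 scale), a neuronal tubulin, Adam8 (0.32), a membrane protease, Mmp19 (0.40), a matrix metalloproteinase, Tsc22d3 (0.41), a glucocorticoid-induced gene, and Socs3 (0.42). Closest to Socs3 were Dlk2 (0.16), Adam8 (0.22), Mmp19 (0.23), Suox (0.24) and Vcan (0.24), a matrix proteoglycan, and Osmr came 55th. Adam8 and Mmp19 were near both, at 19.3 and 24.4 CPM in aging RGCs and 78.9 and 85.9 CPM in the medium, and both overlap genes on the other strand, as does Dlk2. Tubb3 is also among the RGC markers given above. Dlk2 averaged at most 3.09 CPM, so its place rests on few counts. The likeness is a description over libraries that fall into 3 groups.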

How the data were processed

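RNA was extracted with Trizol, and mRNA was enriched by oligo(dT) beads. Per gene, the deposited table gives an expected count (an unnormalized estimate of reads) in each library. The authors also deposited FPKM, which corrects for transcript length and library size. The submitters' processing notes name mm10, while aligner, counting program and strandedness were not given in the sources used here. Groups were taken from the sample titles.

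Expected counts were rounded, filterByExpr kept 12145 genes, TMM factors were 0.956 to 1.03, and a model of group means over the 9 libraries was fitted by edgeR 4.0.16 in R 4.3.3 (quasi-likelihood test, Benjamini-Hochberg over all genes tested). CPM values carry these TMM factors. DEGs passed an adjusted p of 0.05 with a log2 fold change of 1 or more in size. Standard errors and 95% intervals come from the same fit. A simulation tested which genes that fit called, and not its standard errors or intervals. Coordinates are of GENCODE M21 (GRCm38), and promoter windows of RefSeq.

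The members and lists were chosen with earlier results of these data known. Named were all members, list genes that were DEGs at 1 CPM or more, the 2 most abundant others per list, and the 5 genes most like Osmr or Socs3. A gene that this rule would name is not reported here. Ccnd1, Bcl3, Orm1 and Osm were chosen once their values had been seen. The alternatives tried were DESeq2 1.42.0, the likelihood ratio test, other scalings and filters, fits to the compared groups alone, a replicate block, limma 3.58.1 on log2(FPKM + 1) or log2(FPKM + 0.1), no fold-change threshold, and each library left out.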

Additional observations from a re-analysis of the deposited data

How the results depend on the processing

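Of the fold changes of members recomputed under the alternatives, 532 kept their direction and their side of the adjusted p of 0.05, 9 lost it and 26 changed sign, the latter for Il6, Jak1 or Jak2. Between aging and normal RGCs the number of member DEGs went from 1 to 0 with limma on log2(FPKM + 1) and to 7 with no fold-change threshold, and that of pathway genes from 1 to 2 with no low-count filter, 0 with limma on log2(FPKM + 1), 33 with no fold-change threshold, and 1 to 3 with a library left out. It was 3 without normal replicate 2 or aging replicate 1, 2 or 3, and 2 without medium replicate 1, 2 or 3. Between the medium and aging RGCs the pathway count went from 8 to 3 with limma on log2(FPKM + 1), was 9 to 11 with a library left out, and with no fold-change threshold it was 33, and that of members 9 in place of 4. Between the medium and normal RGCs the pathway count went from 5 to 10 with no low-count filter and 38 with no fold-change threshold, and ranged from 6 to 8 with a library left out, at 8 without normal replicate 1, aging replicate 2 or 3 or medium replicate 1, and that of members went from 3 to 9 with no fold-change threshold. The low-count filter was applied anew with each library left out, so the genes tested could differ from those of the main fit. The cause was not tested.

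The fold changes that changed sign lay near 0. That of Jak1 in aging against normal RGCs was -0.0026 by DESeq2, -0.0218 without TMM factors, -0.0071 with upper-quartile factors, -0.0020 with no low-count filter, -0.0036 with a filter of 1 CPM in 3 libraries, -0.0308 and -0.0312 by limma with 1 and 0.1 added, -0.0040 with only the 2 groups compared, and -0.0193 to 0.0113 with a library left out. That of Jak2 was -0.0098 without TMM factors, -0.0115 and -0.0120 by limma, and -0.0024 to 0.0262 with a library left out. That of Il6 ranged from -0.125 to 0.0589 in aging against normal RGCs with a library left out, from -0.249 to 0.107 in the medium against aging RGCs, where limma gave 0.0186 and 0.0446, and from -0.266 to 0.0901 in the medium against normal RGCs.

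Libraries of the same number did not deviate together (correlations of -0.0368 to 0.0479), so no pairing by number was seen. This cannot show how the wells were numbered, which the sample titles do not say. With the replicate block the members held 1, 4 and 3 DEGs and the pathway lists 1, 8 and 5, the same numbers as without it. Depth limits Il6, at 7 to 14 counts per library.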
